A study of Homo sapiens with 12 samples.

Results

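Entry into S phase is controlled by a small set of cyclins, cyclin-dependent kinases and pocket proteins, and 10 of their genes were followed in HEK293T cells after knockdown of CARM1 or of a subunit of the NuRD complex. The genes were listed by name and not by their values: the D-type cyclins CCND1, CCND2 and CCND3, the E-type cyclins CCNE1 and CCNE2, the kinases CDK2, CDK4 and CDK6, and the pocket protein genes RB1 and RBL1. All 10 were found in the gene counts by Ensembl identifier and all 10 passed the filter on low expression, among 12830 coding genes tested in the series. CARM1 is an arginine methyltransferase, CHD4, HDAC2 and GATAD2A are the remodeler, a deacetylase and a structural subunit of NuRD, and KDM1A is a histone demethylase that associates with it.

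RNA-seq libraries were made from cells transfected with siCTL, the control siRNA, or with siRNA against 1 of these genes (siCARM1, siKDM1A, siCHD4, siHDAC2 or siGATAD2A). There were 12 libraries, 2 in each of the 6 groups. Every group is labelled as HEK293T of WT genotype, with no other treatment, so the labels set the groups apart by siRNA alone. The study's text names RiboBio or Amogene as the sequencing company, and not which libraries each of them sequenced. A batch by company could thus not be checked. HEK293T is the derivative of the embryonic kidney line HEK293 that carries the SV40 large T antigen, and the study's own text names the cells HEK293. Both lines carry adenovirus E1A, a viral protein that binds the RB family, as large T does, which limits them as a model of this pathway. No source used here says whether the 2 libraries of a group came from separate cultures, so p-values measure only the spread between these libraries.

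In textbook terms, D-type cyclins bind CDK4 or CDK6 in response to growth signals, and the active kinases phosphorylate RB, the product of RB1, and its relative p107, the product of RBL1. Phosphorylated pocket proteins release E2F transcription factors, which turn on genes for DNA replication together with CCNE1 and CCNE2. Cyclin E then activates CDK2, which phosphorylates RB further, while inhibitors of the CIP/KIP and INK4 families hold these kinases back.

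The genes were located on GRCh37 with the GENCODE 44 annotation. The D-type cyclin genes were CCND1 (ENSG00000110092) at chr11:69455924-69469242, CCND2 (ENSG00000118971) at chr12:4378937-4414519 and CCND3 (ENSG00000112576) at chr6:41902672-42018095. CCNE1 (ENSG00000105173) lay at chr19:30302898-30315219 and 12 exons made up its canonical transcript. CCNE2 (ENSG00000175305) also had 12 exons, against 5 in each D-type cyclin gene. The kinase genes were CDK2 (ENSG00000123374) at chr12:56360565-56366573, CDK4 (ENSG00000135446) at chr12:58141510-58149796 and CDK6 (ENSG00000105810) at chr7:92234235-92465887. RB1 (ENSG00000139687) spanned chr13:48877880-49173572 and RBL1 (ENSG00000080839) chr20:35624752-35724400. Counts were of exonic read pairs, and other genes on the opposite strand cover 44.2% of the exonic bases of CDK4 (TSPAN31), 37.1% of CCNE2 (INTS8 and 1 more), 16.8% of CDK2 (PMEL and 1 more) and 10.4% of CCND1 (LTO1). For this reason counts of the reverse strand, on which this directional kit places the transcript, were used. Another gene on the same strand covers 12.5% of the exonic bases of CCND2.

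Promoter sequences are shown for RBL1, a gene that E2F itself regulates, and for CDK4, which differed in siCARM1 from the control and from the other 4 knockdowns. RefSeq on GRCh38.p14 gave a promoter window, 250 bases before to 50 after a start, for 6 of the 10 genes (CCND3, CCNE1, CDK4, CDK6, RB1 and RBL1). The windows were searched on both strands for 4 E2F-type motifs, TTTCCCGC, TTTCGCGC, TTTGGCGC and TTTGCCGC, and for the E-box CACGTG, the motif bound by MYC and related factors. Any of the 4 E2F-type motifs was present in 3.31% and the E-box in 7.26% of 35116 windows, and none of these motifs overlapped another in the sequences printed. The 250 bases before the start follow, read 5′ to 3′ on the minus strand for both genes, with matches in capitals.
RBL1 (GRCh38.p14, chr20:37095998-37096247): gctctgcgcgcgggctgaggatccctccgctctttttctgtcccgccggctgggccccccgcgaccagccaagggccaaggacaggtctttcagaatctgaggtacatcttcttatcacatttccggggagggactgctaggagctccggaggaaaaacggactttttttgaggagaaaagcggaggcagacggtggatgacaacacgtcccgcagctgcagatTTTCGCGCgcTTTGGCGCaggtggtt
CDK4 (GRCh38.p14, chr12:57752311-57752560): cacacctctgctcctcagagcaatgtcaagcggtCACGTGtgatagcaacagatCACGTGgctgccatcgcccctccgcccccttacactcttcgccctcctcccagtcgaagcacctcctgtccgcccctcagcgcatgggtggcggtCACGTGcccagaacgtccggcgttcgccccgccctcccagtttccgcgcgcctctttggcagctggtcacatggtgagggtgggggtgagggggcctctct

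RBL1 held TTTCGCGC 26 bases and TTTGGCGC 16 bases before the start, side by side on the forward strand of the window. The windows of the other 5 genes held none of the 4 E2F-type motifs, which says only that these letters are not in the windows listed. The 1 start listed for RB1 lies 172699 bases inside the gene in the RefSeq gene table of the same build. Those listed for CCND3 lie 1347, 108227 and 110830 bases inside it. The sequence around the first base of RB1 and of CCND3 was thus not searched. TTTCGCGC was present in 0.515% and TTTGGCGC in 0.652% of all windows, against 1.63% for TTTCCCGC and 0.607% for TTTGCCGC. CDK4 held the E-box 3 times, at 216, 196 and 101 bases before the start, and 1 of the 2 windows of CDK6 held it once, after the start. These matches describe the letters and do not show binding.

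Levels are given as CPM, the count of a gene scaled to the library's total on the tested genes with TMM factors, and comparisons of levels between genes as FPKM, which also divides by exonic length. Changes were called where edgeR gave an adjusted p no larger than 0.05 and the fold was 1.2 or more, which is 0.26 on the log2 scale. Fold changes were log2 differences against siCTL unless another group is named, and ± marks the standard error of the fit. The 5 comparisons share both siCTL libraries. Statements that libraries of 2 groups did not overlap are descriptions only. The libraries of a knockdown and of siCTL did not overlap in 66.6% (siHDAC2) to 82.8% (siCHD4) of all tested genes. Between 2 knockdowns this share was 60.9% (siHDAC2 and siKDM1A) to 82.5% (siCHD4 and siKDM1A). In bulk RNA, a change in the share of cells in a phase of the cycle and a change in RNA per cell cannot be told apart.

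Totals on genes ranged from 19308315 to 28648657 counts. Each siRNA lowered its own target, from 1.45-fold for CHD4 (39.5 and 39.7 CPM in siCTL, 26.7 and 27.9 in siCHD4, edgeR adjusted p = 1.2e-07) to 6.01-fold for KDM1A, with 5.18-fold for CARM1, 5.08-fold for HDAC2 and 3.35-fold for GATAD2A. GATAD2A itself stood at 371 and 368 CPM in siCHD4 against 182 and 166 in siCTL. Of 4 genes listed for HEK293 cells, 2 or 3 exceeded 1 CPM in a library, EPCAM stayed at or below 0.274 CPM in all 12 and PAX2 at or below 2.31, and the summed level ran from 274 to 765 CPM. Of 5 genes listed for MCF7, the other line of the study, ESR1 and TFF1 stayed at or below 0.596 and 0.213 CPM in all 12 libraries and the other 3 exceeded 1 CPM in each. The sum of these 5 was 71.9 and 74.3 CPM in siCHD4 and 29.3 to 35.4 CPM in the other libraries, and its part in the results was not tested.

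All 10 genes were called in at least 1 knockdown, and no gene was called in the same direction in all 5. The shares of all tested genes called at least once, or the same way in all 5, were not computed. Both statements are thus read as counts only. Of the 50 log2 fold changes, 12 were called lower, 11 higher and 27 neither. In siCARM1, CCND3, CCNE1 and CDK4 fell and CCND2, CDK6 and RBL1 rose, where 14.5% of all tested genes were called lower and 14.9% higher. Knockdown of CHD4 lowered RB1 and raised CCNE1 and CDK2, where 24.9% of tested genes were lower and 24.0% higher. With siHDAC2, CCND1 and CCND3 fell and CCND2 and RBL1 rose, against 9.00% lower and 10.6% higher. Under siGATAD2A, CCND1, CCNE2 and RB1 fell and CCNE1 and CDK6 rose, against 18.2% and 15.7%. Finally, siKDM1A lowered CCND1, CCND3 and CCNE2 and raised CDK6 and RBL1, against 11.5% and 14.2%. The median log2 fold change of the 10 genes lay between -0.08 (siGATAD2A) and 0.07 (siCARM1), and that of all tested genes between 0.00 and 0.01. With 1 to 3 of 10 genes in each direction, the set was not tested against these shares, and the account below is of its single members.

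**Figure D1:**
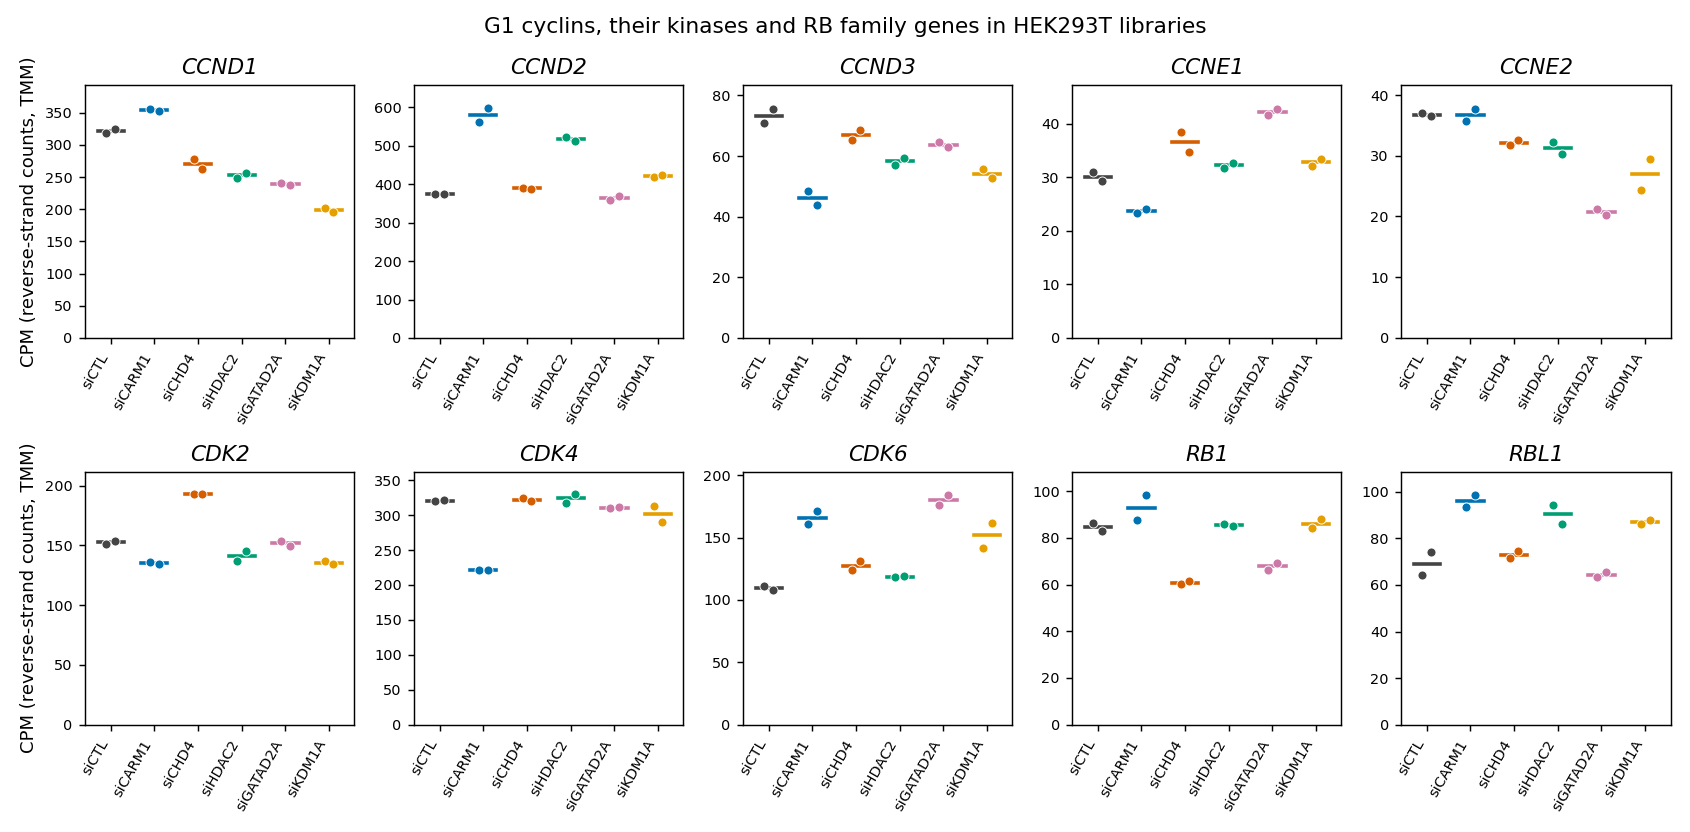
Level of each gene in every library in CPM (counts scaled to the total on the tested genes with TMM factors, y axes from 0), with 1 point per library and a line at the mean of the 2 libraries of each siRNA group. CCND1 falls to 199 CPM in siKDM1A from 322 in siCTL, CDK4 stands at 222 CPM in siCARM1 and between 301 and 324 in the other 5 groups, and CDK6 is above siCTL in all 5 knockdowns.

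The D-type cyclins did not move as a block: CCND1 and CCND3 were called in the lower direction only and CCND2 in the higher direction only. CCND1, cyclin D1, was the member with the widest range of group means, 0.83 on the log2 scale, and 77.6% of tested genes had a smaller one. CCND1 had 319 and 324 CPM in siCTL, 356 and 353 in siCARM1, 249 and 256 in siHDAC2, 278 and 263 in siCHD4, 202 and 196 in siKDM1A, and 241 and 238 in siGATAD2A. Both siCARM1 libraries were thus above both controls and the 8 libraries of the other 4 knockdowns below them, with siKDM1A lowest. The fall was -0.35 ± 0.040 in siHDAC2 (edgeR adjusted p = 5.8e-08), -0.42 ± 0.040 in siGATAD2A (edgeR adjusted p = 2.8e-10) and -0.69 ± 0.041 in siKDM1A (edgeR adjusted p = 1.5e-14). In siCHD4 the difference of -0.25 ± 0.040 passed the adjusted p (edgeR, 2.6e-06) but, at 1.19-fold, not the fold minimum, and without siCHD4 replicate 1 it was -0.30 and called. The value in siCARM1 was 0.14 ± 0.040, a 1.10-fold difference that was not called. Between knockdowns, siCARM1 exceeded each of the other 4 in CCND1, by 0.39 (siCHD4) to 0.83 (siKDM1A), all called. In the order of levels, siKDM1A differed from its neighbour siGATAD2A by 0.27 ± 0.041 (edgeR adjusted p = 2.6e-06), whereas siGATAD2A, siHDAC2 and siCHD4 differed from their neighbours by 0.08 and 0.10, which were not called.

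CCND2, cyclin D2, had 375 and 376 CPM in siCTL, 561 and 598 in siCARM1, 523 and 512 in siHDAC2, 391 and 389 in siCHD4, 419.8 and 423 in siKDM1A, and 359 and 369 in siGATAD2A. The 4 libraries of siCARM1 and siHDAC2 were highest and did not overlap any other group. CCND2 rose by 0.63 ± 0.038 in siCARM1 (edgeR adjusted p = 2.1e-14) and by 0.46 ± 0.038 in siHDAC2 (edgeR adjusted p = 6.0e-11), a difference of 0.16 between them that was not called. The values in siCHD4 (0.05), siGATAD2A (-0.05) and siKDM1A (0.17) were not called, and siCARM1 exceeded each of these 3 by 0.46 to 0.67 and siHDAC2 by 0.30 to 0.51, all called.

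CCND3, cyclin D3, had 70.9 and 75.7 CPM in siCTL, 48.6 and 43.8 in siCARM1, 57.2 and 59.5 in siHDAC2, 65.4 and 68.6 in siCHD4, 55.6 and 52.9 in siKDM1A, and 64.6 and 62.9 in siGATAD2A. Every one of the 10 knockdown libraries lay below both controls. In single comparisons with siCTL, 66.6% to 82.8% of all tested genes were separated, in either direction. The fall was -0.67 ± 0.061 in siCARM1 (edgeR adjusted p = 2.5e-10), -0.44 ± 0.061 in siKDM1A (edgeR adjusted p = 7.9e-07) and -0.33 ± 0.060 in siHDAC2 (edgeR adjusted p = 7.5e-05). In siGATAD2A the value was -0.20 ± 0.059 and in siCHD4 -0.13 ± 0.059, neither called. No step between neighbours in the order of CCND3 levels was called, but siCARM1 was lower than siHDAC2, siGATAD2A and siCHD4 by 0.34 to 0.53, each called.

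Per length, CCND1 and CCND2 made up most of the D-type cyclin transcript. In siCTL, CCND1 stood at 63.8 ± 0.404 and CCND2 at 44.4 ± 0.0799 FPKM (mean ± SD, n = 2), and CCND3 at 11.7 and 12.4 FPKM in the 2 libraries. CCND1 led in siCTL with 53.1% of the summed FPKM of the 3 genes, and CCND2 led in siHDAC2 (50.6%) and siKDM1A (50.7%). Which gene led in the other groups depended on the counting of strands. Without regard to strand CCND1 still led in siCTL (48.4%). CCND2 then also led in siCARM1 (50.9% against 43.2%), siCHD4 (45.2% against 43.7%) and siGATAD2A (46.1% against 42.3%). The sum was 146 FPKM in siCARM1, 120.2 in siCTL and again 120.2 in siHDAC2, 108 in siCHD4, 101 in siGATAD2A and 98.1 in siKDM1A. In siHDAC2 the sum thus equalled that of siCTL while CCND1 was lower and CCND2 higher. CCND3 held 10.0% of the sum in siCTL and 5.17% in siCARM1. The sums and shares were not tested and are given as descriptions.

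**Figure D2:**
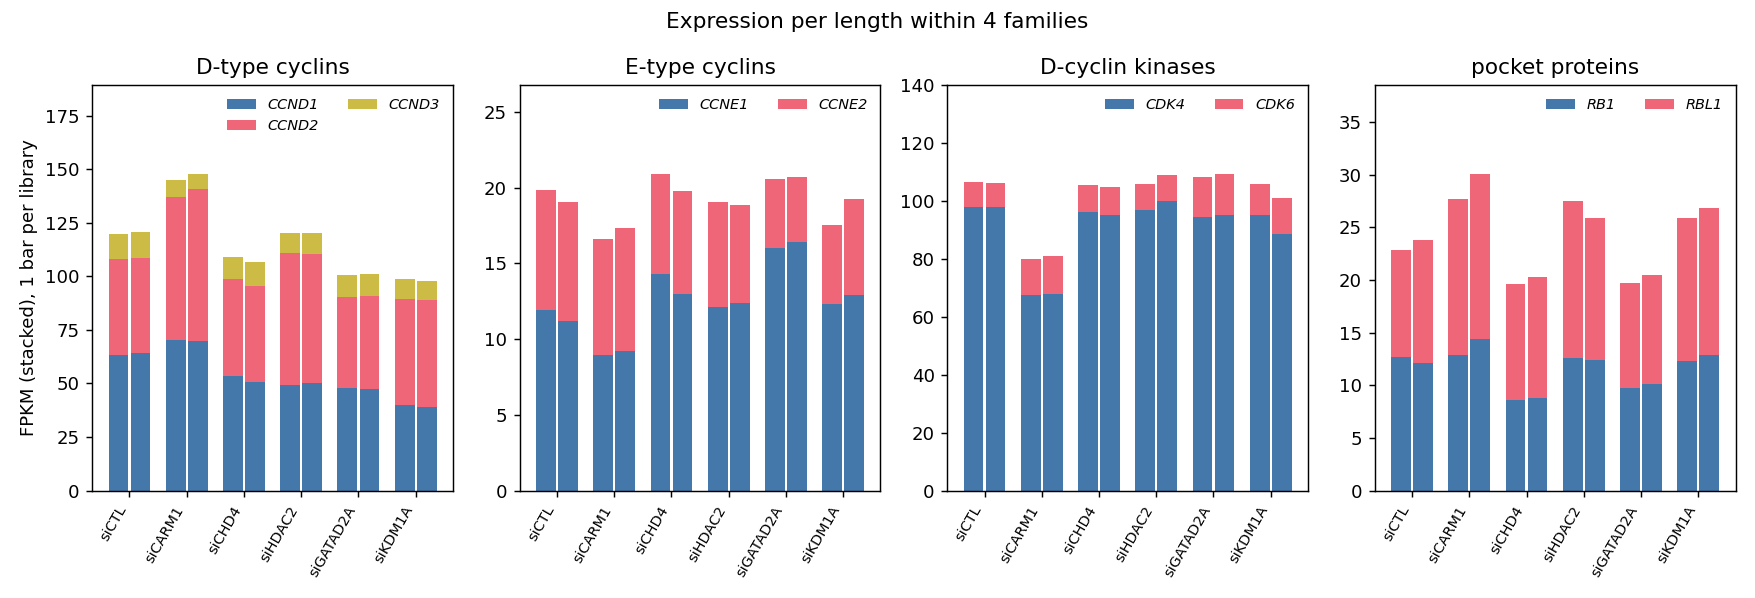
Summed level per length (FPKM, y axes from 0) of the D-type cyclins, the E-type cyclins, the kinases CDK4 and CDK6, and the pocket protein genes RB1 and RBL1. Each library has 1 stacked bar, with 2 bars per siRNA group. The D-type sum is highest in siCARM1 (146 FPKM) with CCND2 as the part that grew most, and the CDK4 part is shortest in siCARM1.

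The E-type cyclins, the partners of CDK2, moved in opposite directions in siGATAD2A. CCNE1 had 31.0 and 29.3 CPM in siCTL, 23.3 and 24.0 in siCARM1, 31.8 and 32.7 in siHDAC2, 38.4 and 34.8 in siCHD4, 32.1 and 33.5 in siKDM1A, and 41.7 and 42.8 in siGATAD2A. The siCARM1 libraries were lowest and the siGATAD2A libraries highest of all 12. CCNE1 fell by 0.35 ± 0.076 on the log2 scale in siCARM1 (edgeR adjusted p = 3.7e-04) and rose by 0.49 ± 0.071 in siGATAD2A (edgeR adjusted p = 9.7e-07). The rise in siCHD4 was 0.28 ± 0.072 (edgeR adjusted p = 0.00115), and it lost its call without siCTL replicate 2 (0.24) or without siCHD4 replicate 1 (0.20). In siHDAC2 and siKDM1A the values of 0.10 and 0.12 were not called. Between siCARM1 and siGATAD2A the difference itself was -0.84 ± 0.072 (edgeR adjusted p = 3.2e-11), and siCARM1 was lower than each of the other 4 knockdowns, by at least 0.45.

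CCNE2 had 37.0 and 36.5 CPM in siCTL, 35.7 and 37.7 in siCARM1, 32.3 and 30.3 in siHDAC2, 31.7 and 32.6 in siCHD4, 24.4 and 29.5 in siKDM1A, and 21.2 and 20.2 in siGATAD2A. The libraries of siGATAD2A were lowest, and those of siKDM1A, which lay farther apart than in any other group, came next. CCNE2 fell by 0.83 ± 0.083 on the log2 scale in siGATAD2A (edgeR adjusted p = 7.8e-10), the largest change of any of the 10 genes against siCTL, and by 0.44 ± 0.080 in siKDM1A (edgeR adjusted p = 4.2e-05). The values of -0.19 in siCHD4 and -0.23 in siHDAC2 passed the adjusted p (edgeR, 0.0321 and 0.0203) but not the fold minimum. Without siHDAC2 replicate 1 the value in siHDAC2 was -0.28, beyond the fold minimum. The interval in siCARM1 ran from -0.16 to 0.16 around 0.00. All 4 other knockdowns exceeded siGATAD2A in CCNE2, by 0.38 (siKDM1A) to 0.83 (siCARM1), each called.

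The summed FPKM of the E-type cyclins stayed between 17.0 (siCARM1) and 20.6 (siGATAD2A), with 19.5 in siCTL and 20.4 in siCHD4. CCNE2 made up 40.5% ± 0.680 of it in siCTL and 21.5% ± 0.884 in siGATAD2A (SD, n = 2). When reads were counted without regard to strand these shares were 22.5% and 10.6%, and siGATAD2A stayed lowest of the 6 groups. Read pairs that fall on CCNE2 and on a gene of the opposite strand are then left out as ambiguous. Their part in the lower shares was not tested. Counts on the opposite strand of CCNE2 equalled 13.1% (siCHD4) to 25.0% (siGATAD2A) of its own counts.

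Of the kinases, CDK4 fell in siCARM1, CDK2 rose in siCHD4, and CDK6 rose in siCARM1, siGATAD2A and siKDM1A. CDK4 had 319.6 and 322 CPM in siCTL, 222 and 222 in siCARM1, 318 and 330.0 in siHDAC2, 324 and 319.8 in siCHD4, 313 and 290.1 in siKDM1A, and 309.7 and 312 in siGATAD2A. The 2 siCARM1 libraries stood apart from the other 10, which lay within 290.1 to 330.0 CPM. The fall was -0.53 ± 0.041 in siCARM1 (edgeR adjusted p = 6.0e-12), a 1.44-fold difference, and the values in the other 4 knockdowns lay between -0.09 and 0.02. Their 95% intervals together spanned -0.17 (siKDM1A) to 0.10 (siHDAC2), short of a fold of 1.2 in either direction. The siCARM1 libraries were also lower in CDK4 than each of the other 4 knockdowns, by 0.44 to 0.55, all called, so the difference between knockdowns was itself tested.

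CDK6 had 111 and 108 CPM in siCTL, 161 and 171 in siCARM1, 118 and 119.5 in siHDAC2, 124 and 131 in siCHD4, 142 and 162 in siKDM1A, and 176 and 184 in siGATAD2A. All 10 knockdown libraries were above both controls, with siGATAD2A highest. CDK6 rose by 0.72 ± 0.054 in siGATAD2A (edgeR adjusted p = 1.7e-12), by 0.60 ± 0.055 in siCARM1 (edgeR adjusted p = 1.7e-10) and by 0.48 ± 0.055 in siKDM1A (edgeR adjusted p = 2.5e-08). The value in siCHD4 was 0.23 ± 0.055 and in siHDAC2 0.12 ± 0.056, neither called. No neighbours in the order of CDK6 levels differed by a called amount, yet siGATAD2A exceeded siHDAC2 by 0.60 and siCHD4 by 0.50, both called.

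CDK2, the kinase of cyclin E, had 151 and 154 CPM in siCTL, 136 and 134 in siCARM1, 137 and 145 in siHDAC2, 193 and 193 in siCHD4, 137 and 134 in siKDM1A, and 154 and 149.6 in siGATAD2A. The siCHD4 libraries stood above the other 10. CDK2 rose there by 0.34 ± 0.045 (edgeR adjusted p = 8.2e-08), and siCHD4 exceeded each of the other 4 knockdowns by 0.35 to 0.52, all called. In siCARM1 and siKDM1A the values of -0.18 and -0.17 passed the adjusted p (edgeR, 0.00180 and 0.00303) but not the fold minimum.

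CDK4 was the more abundant of the D-cyclin kinases per length in every library. In siCTL it stood at 97.9 ± 0.0843 FPKM against 8.44 ± 0.206 for CDK6 and 37.1 ± 0.508 for CDK2 (mean ± SD, n = 2). CDK6 made up 7.93% ± 0.184 of the sum of CDK4 and CDK6 in siCTL, 15.9% ± 0.605 in siCARM1, 12.8% ± 0.281 in siGATAD2A and 11.3% ± 1.50 in siKDM1A (SD, n = 2). The sum was 80.6 FPKM in siCARM1, where CDK4 was lower and CDK6 higher, and 104 to 109 FPKM in the other 5 groups. These sums and shares were not tested. Without regard to strand the share of CDK6 was 13.3% in siCTL and 25.5% in siCARM1. Pairs that CDK4 shares with TSPAN31 drop out of such counts, and their part in the higher shares was not tested.

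**Figure D3:**
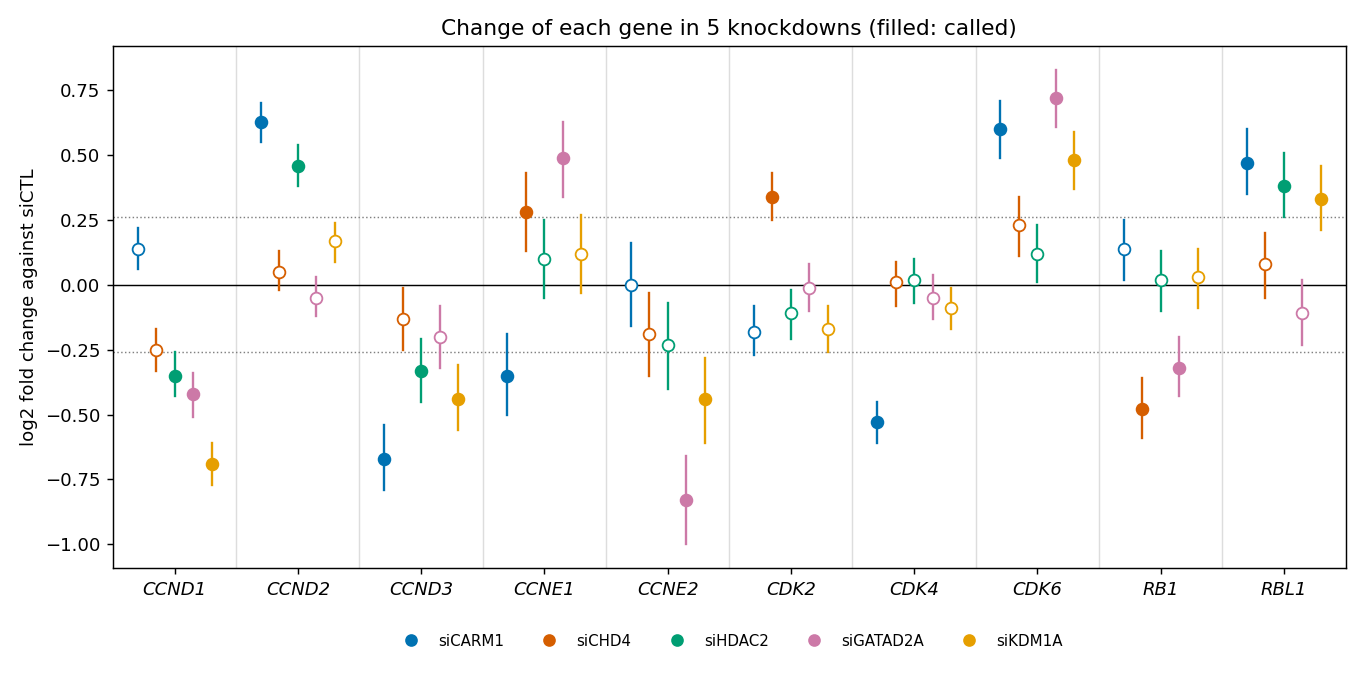
Log2 fold change of each gene against siCTL in the 5 knockdowns, with vertical lines for 95% confidence intervals from the edgeR fit and dotted lines at a fold of 1.2. Filled points were called (23 of 50) and open points were not. CDK4 is called in siCARM1 alone, and CCNE1 is called lower in siCARM1 and higher in siCHD4 and siGATAD2A.

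The pocket protein genes RB1 and RBL1 were called in opposite directions, and in no knockdown were both called. RB1, which encodes the retinoblastoma protein, had 86.2 and 82.8 CPM in siCTL, 87.6 and 98.4 in siCARM1, 85.9 and 85.0 in siHDAC2, 60.1 and 61.4 in siCHD4, 84.1 and 88.0 in siKDM1A, and 66.4 and 69.1 in siGATAD2A. The 4 libraries of siCHD4 and siGATAD2A were lowest and did not overlap the other 8. RB1 fell by 0.48 ± 0.058 on the log2 scale in siCHD4 (edgeR adjusted p = 2.0e-08) and by 0.32 ± 0.057 in siGATAD2A (edgeR adjusted p = 2.6e-05), a difference of -0.16 between them that was not called. The values were 0.14 in siCARM1, 0.02 in siHDAC2 and 0.03 in siKDM1A, none called. Each of these 3 knockdowns exceeded siCHD4 by 0.49 to 0.61 and siGATAD2A by 0.33 to 0.45, all called.

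RBL1 had 64.2 and 74.0 CPM in siCTL, 93.4 and 98.8 in siCARM1, 94.5 and 86.1 in siHDAC2, 71.5 and 74.4 in siCHD4, 86.3 and 87.9 in siKDM1A, and 63.2 and 65.5 in siGATAD2A. The controls lay farther apart for RBL1 than for the other members. The 6 libraries of siCARM1, siHDAC2 and siKDM1A were all above the other 6. RBL1 rose by 0.47 ± 0.061 in siCARM1 (edgeR adjusted p = 1.7e-07), by 0.38 ± 0.061 in siHDAC2 (edgeR adjusted p = 1.3e-05) and by 0.33 ± 0.061 in siKDM1A (edgeR adjusted p = 6.0e-05). Without siCTL replicate 1, the lower of the controls, the rise in siKDM1A was 0.24 and lost its call. In siCHD4 (0.08) and siGATAD2A (-0.11) the libraries overlapped the controls, and the difference was not called. The E2F-type matches printed above belong to this gene, and a part of E2F in its changes was not tested.

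Per length the pocket protein genes were close to each other, at 12.4 ± 0.391 FPKM for RB1 and 11.0 ± 1.06 FPKM for RBL1 in siCTL (mean ± SD, n = 2). The sum of RB1 and RBL1 was lowest in siCHD4 (19.9 FPKM) and siGATAD2A (20.1 FPKM) and highest in siCARM1 (28.9 FPKM), against 23.4 FPKM in siCTL. It leaves out RBL2, of the same family, which had a mean of 78.3 CPM in siCTL. RBL2 was called higher in siCARM1 (0.35), siHDAC2 (0.38) and siKDM1A (0.32) and lower in siGATAD2A (-0.43). In siCHD4 its value of 0.11 was not called. RB1 made up 43.5% of the sum of RB1 and RBL1 in siCHD4 and 53.2% in siCTL.

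Between knockdowns, 52 of 100 contrasts of the 10 genes were called, and every gene had at least 4 called among its 10 contrasts, with CCND1 at 7. No such count per gene was made over all tested genes. Most were called between siCARM1 and siCHD4, 9 of 10 where 47.7% of tested genes were, with CCNE2 (0.19) as the exception. CCND3, CCNE1, CDK2 and CDK4 were lower in siCARM1 there and CCND1, CCND2, CDK6, RB1 and RBL1 higher. Between siCARM1 and siGATAD2A 8 genes were called (background 33.8%), all but CDK2 (-0.17) and CDK6 (-0.12). The contrast of siCARM1 with siHDAC2 called 5 genes (19.3%) and that with siKDM1A also 5 (21.0%). For siCHD4, 4 genes were called against siHDAC2 (48.8%), 3 against siGATAD2A (44.8%) and 4 against siKDM1A (47.7%). Against siGATAD2A, 6 genes were called for siHDAC2 (29.5%) and 5 for siKDM1A (32.1%). Between siHDAC2 and siKDM1A 3 genes were called, CCND1, CCND2 and CDK6 (14.3%). In the contrasts of siCHD4 with siHDAC2, siGATAD2A and siKDM1A the share of these genes that was called did not exceed the background.

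Other genes of the pathway were read from lists by role, each count beside the number tested. Over all tested genes, the shares called lower and higher were 14.5% and 14.9% in siCARM1, 24.9% and 24.0% in siCHD4, 9.00% and 10.6% in siHDAC2, 18.2% and 15.7% in siGATAD2A, and 11.5% and 14.2% in siKDM1A. No list was tested against these shares, and counts of a few genes are read only as counts. The CDK inhibitors, 7 genes, had 4 called lower and 1 higher in siGATAD2A and 5 lower and 1 higher in siKDM1A, with medians of -0.51 and -0.31 where the median of all tested genes was 0.00. In siCARM1 2 were lower and 1 higher (median -0.16), in siCHD4 3 and 1 (-0.25), and in siHDAC2 1 and 0 (-0.08). CDKN1A, which encodes p21, fell by 0.92 ± 0.048 in siCARM1, by 0.84 ± 0.048 in siCHD4 and by 0.92 ± 0.048 in siGATAD2A on the log2 scale, and its values in siHDAC2 and siKDM1A were -0.21 and -0.18. CDKN1B, which encodes p27, fell in siCHD4 (-0.27), siHDAC2 (-0.29), siGATAD2A (-0.68) and siKDM1A (-0.41), and stood at -0.22 in siCARM1. CDKN2B, which encodes the CDK4 and CDK6 inhibitor p15, rose in siCARM1 (0.56), siGATAD2A (0.59) and siKDM1A (0.54), the 3 knockdowns in which CDK6 rose. CDKN2C, which encodes p18, fell in siCHD4 (-0.29), siGATAD2A (-0.51) and siKDM1A (-0.31).

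Downstream, 26 known E2F target genes of G1/S had 13 called lower and 1 higher in siCHD4, with a median of -0.24, where 24.9% of all tested genes were lower and 24.0% higher. In siKDM1A 5 were lower and 0 higher (-0.11, beside 11.5% and 14.2% of tested genes), in siCARM1 1 and 3 (0.05, beside 14.5% and 14.9%), in siHDAC2 0 and 5 (0.05, beside 9.00% and 10.6%), and in siGATAD2A 1 and 6 (0.03, beside 18.2% and 15.7%). RRM2, a subunit of ribonucleotide reductase, fell in siCHD4 by 0.78 ± 0.039 on the log2 scale and was not called in the other 4. CDT1, a replication licensing factor, fell in siCHD4 (-0.68), siCARM1 (-0.47) and siKDM1A (-0.35). TK1, thymidine kinase, fell in siKDM1A (-0.61) and siCHD4 (-0.34). CDC45, a part of the replicative helicase, rose in siCARM1 (0.33), siHDAC2 (0.32) and siGATAD2A (0.44).

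The 17 genes of E2F and DP factors, RBL2 and the DREAM complex, which represses cell cycle genes in quiescent cells, had 3 lower and 2 higher in siCARM1, 2 and 4 in siGATAD2A, 4 and 2 in siCHD4, and 1 and 1 in both siHDAC2 and siKDM1A, with medians from -0.15 to 0.10. E2F2 fell in siCARM1 (-0.48), siCHD4 (-0.48), siHDAC2 (-0.35) and siKDM1A (-0.29). E2F7, a repressor, fell in siCARM1 (-0.60), siCHD4 (-0.39) and siGATAD2A (-0.35). TFDP1, the DNA-binding partner of E2F, rose in siCARM1 (0.54) and siGATAD2A (0.38), and LIN52, a DREAM subunit, in siCHD4 (0.30) and siGATAD2A (0.33). Naming by the mean change can pass over genes called in opposite directions, among them E2F1. It was called lower in siCARM1 (-0.61) and higher in siGATAD2A (0.53). In siCHD4 (-0.02), siHDAC2 (0.01) and siKDM1A (-0.22) E2F1 was not called.

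Of 10 later cyclins, their kinases and parts of the CDK-activating kinase, 9 were tested, and 2 were lower and 0 higher in each of the 5 knockdowns, with medians from -0.19 to -0.06. Of all tested genes, 9.00% (siHDAC2) to 24.9% (siCHD4) were called lower, so 2 of 9 is not read as a result about this list. CCNA1 fell in siCARM1 (-1.19), siCHD4 (-1.23), siHDAC2 (-0.73) and siGATAD2A (-1.20), and stood at 0.07 in siKDM1A. CCNA2, the partner of CDK2 in S phase, fell in siCHD4 (-0.34), siGATAD2A (-0.34) and siKDM1A (-0.26). CCNF fell in siCARM1 (-0.39) and siKDM1A (-0.27) and CDK1, the mitotic kinase, in siHDAC2 (-0.32). The 13 genes for cyclin turnover and CDK4 chaperones had 2 lower and 4 higher in siCHD4, 1 and 3 in siKDM1A, 0 and 2 in siGATAD2A, 0 and 1 in siCARM1, and 0 and 0 in siHDAC2, with medians from -0.01 to 0.17. In siCHD4, 24.9% of all tested genes were lower and 24.0% higher. HSP90AB1, a chaperone that works with CDC37 on CDK4, rose in siCHD4 (0.63), siGATAD2A (0.65) and siKDM1A (0.33), and CDC37 in siCHD4 (0.61) and siKDM1A (0.27). HSP90AA1 rose in siKDM1A (0.31), and RBX1, a ubiquitin ligase subunit, fell in siCHD4 (-0.28). The RNA of CDK4 was not called in siCHD4, siGATAD2A or siKDM1A. CDK4 protein was not measured here, and a link to these genes was not tested.

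**Figure D4:**
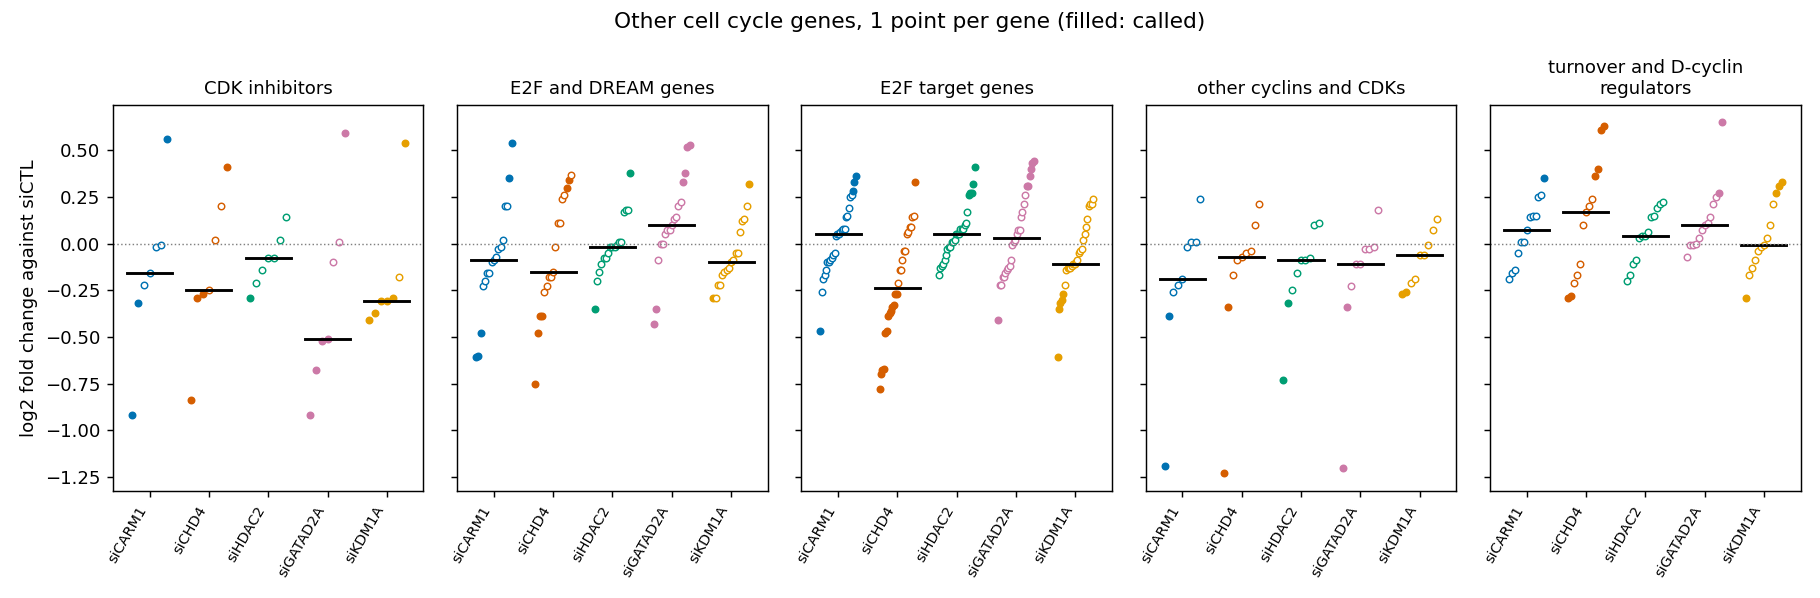
Log2 fold changes against siCTL of the other genes of the pathway in 5 lists by role, with 1 point per gene ordered by value, filled where called, and a black line at the median of the list. The CDK inhibitors in siGATAD2A have a median of -0.51, below that of every other list and knockdown drawn, and 13 of the 26 E2F target genes are called lower in siCHD4 (median -0.24).

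Over the means of the 6 groups, the tested genes whose log2 CPM was most like that of CCND1 were SLC30A4 (Pearson r = 0.993), ATXN3 (0.985), ABHD1 (0.981), TMEM121 (0.970) and ITPRIP (0.958). These r values describe 6 points that share their libraries and were the highest of 12830 genes. The ranges of these genes over the groups, 0.16 to 0.61 on the log2 scale, were narrower than the 0.83 of CCND1.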

How the data were processed

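RNA from HEK293T cells was sequenced in paired ends from a directional kit. For each library the authors deposited counts, not normalized, of read pairs on Ensembl genes, in 3 columns (both strands together, and each strand). Per the labels, the processing notes name CASAVA 1.4, STAR 2.7.10 and hg19, and the annotation is not given in the sources used here. The paper's text names TopHat, HOMER and DESeq2. Reads with several locations are absent from such counts.

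Here the fourth column of each file was used, the reverse-strand counts. The opposite strand held 7.93% to 8.40% as many. Of 60660 identifiers, 96.8% matched GENCODE 44 on GRCh37 by Ensembl identifier. The rest held 1.75% to 2.61% of counts and were left out, with 44 pseudoautosomal copies of chromosome Y. Protein-coding genes were tested if their group mean exceeded 0.5 FPKM in any group (12830). TMM factors lay between 0.968 and 1.01 and the common biological coefficient of variation was 3.47%. edgeR 4.0.16 in R 4.3.3 fitted 6 group means over 12 libraries with the quasi-likelihood test, and p-values were adjusted by Benjamini-Hochberg within each of 15 contrasts over all tested genes.

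The scripts were tested on simulated data in which the changes were known. Between the 2 libraries of a group chi-square was 1.77 to 4.96 per degree of freedom, so none was a copy of the other. This value cannot tell libraries of separate cultures from libraries of 1 culture. Alternatives were size factors of DESeq2 in edgeR, DESeq2 1.42.0, each library left out, a replicate block, fits of the 2 groups alone, unstranded counts, 3 other gene filters, and no fold minimum. The genes, lists, motifs and tests were chosen with earlier results of these data known. Named genes are the 10 members, the 5 targets, of each list the genes called the same way in all 5 knockdowns (there were none) and the 4 called genes with the largest mean change, and the 5 most like the member with the widest range. RBL2 and E2F1 were named outside this rule.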

Additional observations from a re-analysis of the deposited data

Results flagged for a closer look

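CCNE1 was called in opposite directions in 2 knockdowns, and the difference between them was itself tested. It was lower in siCARM1 than in siGATAD2A by a log2 difference of -0.84 ± 0.072 (edgeR adjusted p = 3.2e-11), with 23.3 and 24.0 CPM in siCARM1, 41.7 and 42.8 CPM in siGATAD2A, and 31.0 and 29.3 CPM in siCTL. Groups of 2 libraries are too small for a check of single libraries that stand apart.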

How the results depend on the processing

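Of the 23 called log2 fold changes of the 10 genes, 21 kept their direction and their call in all 20 refits (8 other settings and 12 with 1 library left out) and 0 reversed. The exceptions were CCNE1 in siCHD4 and RBL1 in siKDM1A, and CCNE1 in siCHD4 was also not called with no filter on low genes (0.24). With no filter, CCND1 in siCHD4 was called (-0.29). The numbers of the libraries did not pair them: deviations of same-numbered libraries from their group means correlated between -0.183 and 0.17 over 15 pairs of groups, with 1 above 0.1. Under the replicate block 6, 3, 4, 5 and 5 members were called in siCARM1, siCHD4, siHDAC2, siGATAD2A and siKDM1A, 12 lower and 11 higher in all, and 52 contrasts between knockdowns, the same counts as without it. With no fold minimum 6 of the 10 members were called for siCHD4, where 8430 of 12830 tested genes were (6267 with the minimum). Members called under this setting numbered 9 for siCARM1, 7 for siKDM1A, 6 for siGATAD2A and 5 for siHDAC2. Tested genes called then numbered 6607 for siGATAD2A (4351 with the minimum), 5992 for siCARM1 (3768), 5432 for siKDM1A (3300) and 4539 for siHDAC2 (2512). The member counts were not tested against those of all genes. With 1 library left out, 10 to 11 member values were called higher, 12 to 13 lower and 52 to 55 between knockdowns. Values near 0 that were never called changed sign: CCNE2 in siCARM1 (0.00 with the replicate block, 0.01 with FPKM larger than 1, -0.04 to 0.04 with a library left out), CDK2 in siGATAD2A (0.02 without regard to strand, -0.03 to 0.01), CDK4 in siCHD4 (-0.03 without regard to strand, -0.04 with no filter, 0.00 with filterByExpr, -0.01 to 0.01) and in siHDAC2 (-0.01 with no filter or filterByExpr, -0.01 to 0.04), RB1 in siHDAC2 (-0.01 with no filter or filterByExpr, -0.02 to 0.04) and in siKDM1A (-0.02 with no filter, -0.01 to 0.06), and RBL1 in siCHD4 (-0.02 to 0.18) and siGATAD2A (-0.20 to 0.00). Lists and shares rest on 2 libraries per group, which limits what small differences could be called.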
